A study of Mus musculus with 18 samples.

Results

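The genes described here are 8 receptors that guide leukocytes along gradients of chemokines or of the lipid sphingosine-1-phosphate (S1P): Ccr1, Ccr2, Ccr9, Cxcr2, Cxcr4, Cx3cr1, S1pr1 and S1pr4. They were chosen by name, as the genes of the deposited expression table that carry these symbols, and make up 8 of its 22708 genes. All 8 had counts in all 18 samples.

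The study sequenced bulk RNA of eosinophils that had been sorted from the small intestine of C57/BL6 mice. The sorting gate took side-scatter-high cells that carry CD11b and Siglec-F and lack MHC class II, after enrichment on anti-CD11b beads. There were 3 groups of 6 mice, each with 3 females (F1 to F3) and 3 males (M1 to M3). The question was what AHR, the aryl hydrocarbon receptor, a transcription factor switched on by ligands, does in these cells.

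The groups are wildtype (WT), Ahr knockout (Ahr-KO) and Ahrr knockout (Ahrr-KO), the last labelled as lacking the gene for the AHR repressor. The labels list no treatment and no age, and the methods describe mice of both sexes that were matched for age and sex within an experiment. An age range in weeks is given there for the mice of the study as a whole, not per sample. Cell type-specific deletion is not named for either knockout, and how the Ahrr-KO mice were made is not described. The methods state that Ahr-KO and WT animals came from separate litters and cages, so that genotype, litter and housing cannot be told apart. Sequencing depth differed with the group, from 3842977 to 8149200 counts per sample in WT, 6581818 to 10284124 in Ahr-KO and 8788867 to 12046933 in Ahrr-KO.

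Chemokine receptors and S1P receptors are G protein-coupled receptors at the cell surface. Binding of a ligand releases Gi proteins, which set off cytoskeletal polarity and movement, until kinases and arrestins silence the receptor and draw it inside. Eosinophils are classically called into the gut by eotaxin acting on CCR3, while the receptors described here are better known from neutrophils, monocytes, lymphocytes and bone marrow retention.

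The identity of the sorted cells was checked first with marker genes. Of 10 eosinophil markers, 5 were abundant enough to test, and the most abundant was Alox15, a lipoxygenase. Siglecf, whose product was used for sorting, had log2 values of 10.72, 11.09 and 11.21 (lowest, median and highest) in WT. Most granule genes were nearly silent: the eosinophil peroxidase gene Epx had 4 to 22 counts in any sample, and Prg3, Ear1 and Ear6 had a median count below 3. Prg2, the gene of major basic protein, was the exception, named after its values were seen, with 41 to 85 counts in WT and 285 to 983 in Ahr-KO. Surface and enzyme genes of eosinophils were thus present while most granule transcripts were scarce, and the label was kept.

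The knocked-out genes were looked at next. Ahr had log2 values of 13.40, 13.76 and 14.40 in WT (lowest, median and highest of 6), 14.15, 14.55 and 14.67 in Ahr-KO, and 13.03, 13.51 and 14.42 in Ahrr-KO. Its transcript was therefore not lower in its own knockout (log2 difference 0.61, SE 0.19, adjusted p 0.0557 by limma, 6 of 6 samples above the WT median, called higher in 8 of 24 alternatives with an adjusted p of 0.0145 to 0.155). Ahrr, a classical AHR target, had log2 values of 9.79, 10.12 and 10.39 in WT, a median of 5.25 and a highest value of 5.79 in Ahr-KO, where 2 samples had no count, and 9.95, 10.37 and 10.93 in Ahrr-KO. Ahrr thus fell to between 0 and 10 counts in every Ahr-KO sample (log2 difference -4.83, SE 0.14, adjusted p 4.95e-12 by limma, 6 of 6 samples below every WT sample). With Ahr-KO this close to the lowest value of the table, the size of that difference depends on the scale. In Ahrr-KO the range of the Ahrr transcript overlapped that of WT, with a log2 difference of 0.28 (SE 0.18, adjusted p 0.683 by limma). Since a count over the whole gene does not show which exons were deleted, the genotypes were used as labelled.

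The promoters of the 4 members that passed the test between WT and Ahr-KO are shown here, because the GCGTG pentamer is the core of the element that AHR binds together with ARNT. RefSeq promoter windows on GRCm38.p6 were matched for 7 of the 8 members, all but S1pr1. Each line gives the 250 bases upstream of the start, 5′ to 3′ on the strand of the gene, with GCGTG or its reverse complement CACGC in capitals. The windows are chr9:123968693-123968942 (minus strand) for Ccr1, chr1:128592300-128592549 (minus strand) for Cxcr4, chr9:123766961-123767210 (plus strand) for Ccr9 and chr1:74153744-74153993 (plus strand) for Cxcr2.
Ccr1: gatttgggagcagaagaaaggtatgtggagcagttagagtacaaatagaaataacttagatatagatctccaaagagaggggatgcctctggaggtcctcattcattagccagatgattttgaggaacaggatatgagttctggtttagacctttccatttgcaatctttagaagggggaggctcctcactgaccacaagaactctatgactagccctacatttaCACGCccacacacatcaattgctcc
Cxcr4: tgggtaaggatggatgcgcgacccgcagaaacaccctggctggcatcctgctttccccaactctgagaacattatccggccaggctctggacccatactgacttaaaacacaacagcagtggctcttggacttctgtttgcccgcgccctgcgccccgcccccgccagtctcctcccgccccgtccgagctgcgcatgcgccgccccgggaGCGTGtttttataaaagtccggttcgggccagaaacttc
Ccr9: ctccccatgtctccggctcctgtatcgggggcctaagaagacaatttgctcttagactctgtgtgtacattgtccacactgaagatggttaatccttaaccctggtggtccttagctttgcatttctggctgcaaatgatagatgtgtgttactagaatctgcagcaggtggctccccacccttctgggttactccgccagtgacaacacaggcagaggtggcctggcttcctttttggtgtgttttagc
Cxcr2: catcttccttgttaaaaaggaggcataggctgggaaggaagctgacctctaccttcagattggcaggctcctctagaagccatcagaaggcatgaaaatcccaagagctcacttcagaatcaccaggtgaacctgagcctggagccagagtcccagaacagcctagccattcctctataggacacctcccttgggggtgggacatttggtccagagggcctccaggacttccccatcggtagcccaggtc
Ccr1 holds CACGC with its first base at position -25, and Cxcr4 holds GCGTG at position -39. Both strands were searched, and the windows of Ccr9 and Cxcr2 do not contain these letters in either direction. Upstream of the start 2 of 7 members held the pentamer, against 28.2% of 32851 promoters, and with the 50 bases after the start included it was 3 of 7, against 32.4%. A match of 5 letters is a description of the sequence only. For reference, the upstream window of Ahrr holds GCGTG 3 times.

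The receptors differed widely in abundance. Normalised counts per kilobase of transcript serve for this, since they allow different genes to be compared. Cxcr4, the receptor for Cxcl12 that retains leukocytes in bone marrow, stood at 1098, 1613 and 2899 per kilobase in WT (lowest, median and highest). Ccr1, a receptor for Ccl3 and related chemokines, followed at 284, 502 and 637 per kilobase. Cxcr2, the receptor for neutrophil-attracting CXC chemokines, came next at 141, 167 and 189 per kilobase in WT. This order, with Ccr9 below Cxcr2, held in 6 of 6 WT samples and the ranges did not overlap.

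The remaining members were scarce. Ccr9, which brings lymphocytes to the small intestine towards Ccl25, had a WT median of 16.6 per kilobase. The monocyte receptor Ccr2 had a WT median of 11.3 per kilobase, and that of S1pr4, an S1P receptor of blood cells, was 10.5. S1pr1, which lets lymphocytes leave tissues along the S1P gradient, had a WT median of 4.63 per kilobase, and that of the fractalkine receptor Cx3cr1 was 3.03. The ranges of these 5 overlap from neighbour to neighbour, and their order changes when the length of all exons is used in place of the longest transcript (Ccr9 8.39, Ccr2 9.54 and S1pr4 10.5 per kilobase). For comparison, the eotaxin receptor gene Ccr3 had a WT median of 3838 per kilobase and the atypical receptor gene Ccrl2 of 3493, both named after their values were seen.

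**Figure D1:**
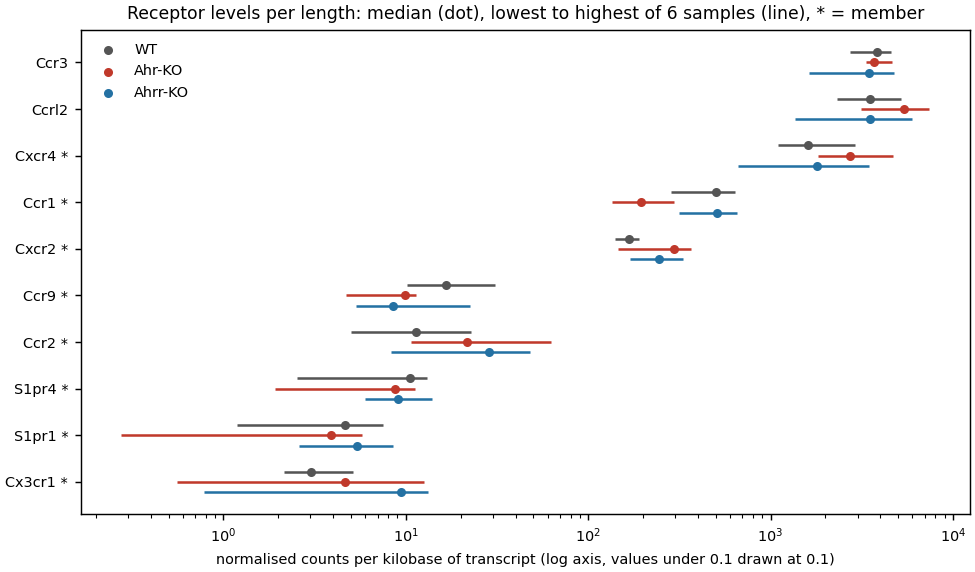
Normalised counts per kilobase of transcript (logarithmic axis) of the 8 members and of Ccr3 and Ccrl2 in the 3 groups, with dots at the median of 6 samples, lines from the lowest to the highest sample, values below 0.1 drawn at 0.1 and the members marked by an asterisk. Cxcr4, Ccr1 and Cxcr2 stand well above the other members, and Ccr1 shifts below Cxcr2 in Ahr-KO (medians 196 and 297).

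The middle of this order was not the same in every group. In Ahr-KO, Ccr1 was more abundant per kilobase than Cxcr2 in only 1 of 6 samples, with medians of 196 and 297 and overlapping ranges. In Ahrr-KO, Ccr1 was above Cxcr2 in 6 of 6 samples, with medians of 509 and 245 per kilobase, though here the ranges overlap, which they do not in WT. Cxcr4 stayed the most abundant member in every sample of every group, with medians of 2715 per kilobase in Ahr-KO and 1803 in Ahrr-KO.

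Ahr-KO samples differed from WT in 4 of the 7 members that could be tested, in both directions. Cxcr2 and Cxcr4 rose, and Ccr1 and Ccr9 fell. S1pr1 was below the minimum abundance for testing, and Ccr2, Cx3cr1 and S1pr4 did not pass the test. The test was limma on the log2 values with sex as covariate, adjusted over 11346 genes, and an adjusted p below 0.05 counted as called. Over all genes 1003 were called (8.84%), 585 higher in Ahr-KO (5.16%) and 418 lower (3.68%), so that 2 members higher and 2 lower of 7 can be read against these shares. No member separated the WT and Ahr-KO groups without overlap, which 512 genes did (4.51%). With WT F3, WT M2, Ahr-KO F1, Ahr-KO F2 or Ahr-KO M3 left out, each alone, only 2 members were called, and without Ahr-KO F1 only 623 genes were. In bulk samples, fewer cells that carry a transcript and less of the transcript per cell cannot be told apart.

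Ccr1 showed the largest log2 difference of the 7 tested members. Its log2 values were 9.76, 10.52 and 10.87 in WT (lowest, median and highest) and 8.80, 9.27 and 9.82 in Ahr-KO. All 6 Ahr-KO samples lay below the WT median and 5 of 6 below every WT sample; only Ahr-KO F2, the highest of its group, reached above WT F1, the lowest WT sample. Ccr1 fell by a log2 difference of -1.12 (SE 0.20, 95% interval -1.56 to -0.69, adjusted p 0.00221 by limma), and the mean normalised count in Ahr-KO was 0.423 of that in WT. The call was made in 24 of 24 alternatives, with an adjusted p of 0.000407 to 0.00808. In Ahrr-KO, Ccr1 had log2 values of 9.91, 10.55 and 10.91, close to the range of WT at both ends. Its promoter, shown above, is 1 of the 2 that hold the pentamer.

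Ccr9, the gut-homing receptor, was low throughout, with 33 to 128 counts per WT sample and 29 to 68 per Ahr-KO sample. Its log2 values were 6.75, 7.16 and 7.79 in WT and 6.23, 6.74 and 6.85 in Ahr-KO. Of the Ahr-KO samples 5 of 6 lay below every WT sample, with Ahr-KO M1 alone above WT F2, and WT F3 and WT M1 were the highest. Ccr9 fell by a log2 difference of -0.60 (SE 0.17, 95% interval -0.96 to -0.24, adjusted p 0.0377 by limma), with 6 of 6 Ahr-KO samples below the WT median and a mean normalised count 0.472 of that in WT. This call is fragile: it was made in 12 of 23 alternatives, with an adjusted p of 0.0191 to 0.104. It was lost without WT F3 (adjusted p 0.0651 by limma), WT M1 (0.0691), WT M2 (0.0601), Ahr-KO F1 (0.104), Ahr-KO F2 (0.0795), Ahr-KO M1 (0.0527), Ahr-KO M2 (0.0623) or Ahr-KO M3 (0.0717). It was also lost with no minimum abundance (0.0862), after quantile normalisation (0.0503) and with all 18 samples in the fit (0.0944). In the fits without the call the log2 difference was -0.45 (without WT F3) to -0.63 (without Ahr-KO M1).

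Reads of Ccr9 may be shared with other genes. Of its windows of 75 bases, 19.3% also occur in the transcripts AC165425.1 and Gm17200, while Ccr1, Cxcr4 and S1pr1 share none (0%) and Cxcr2 shares 1.81%. By the gene spans of the GENCODE annotation the Ccr9 locus also overlaps 6 genes, among them the protein-coding Lztfl1 and Slc6a20a on the opposite strand. That of Cx3cr1 overlaps 9, though only 0.113% of its windows are shared. How reads shared with such genes were assigned was not tested. Markers of lymphocytes and plasma cells, the usual carriers of Ccr9 in the gut, were set beside it, and those of T and innate lymphocytes were scarce. Of 7 T and innate lymphocyte markers 1 could be tested and 0 were called by limma in Ahr-KO. Their normalised counts summed to 15 to 155 per sample in WT, 11.9 to 85.8 in Ahr-KO and 7.02 to 105 in Ahrr-KO, with Cd4 the most abundant and Cd3g, Il7r and Thy1 at a median count below 3. Of 6 B and plasma cell markers 3 were tested and 0 called, with sums of 229 to 1775, 96.1 to 740 and 333 to 6045 whose most abundant gene was Jchain, an antibody joining chain of plasma cells; with Jchain left out they were 36.8 to 88.8, 46.9 to 82 and 33.4 to 212. Their part in the Ccr9 values was not tested.

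Cxcr2 rose. Its log2 values were tightly grouped in WT at 8.95, 9.16 and 9.32, and spread over 8.99, 9.91 and 10.20 in Ahr-KO. All Ahr-KO samples but F2 were above every WT sample, so that the groups overlap through that female alone. The log2 difference was 0.65 (SE 0.16, 95% interval 0.31 to 0.99, adjusted p 0.0198 by limma), and the mean normalised count was 1.70 times that in WT, with 5 of 6 samples above the highest WT value. Cxcr2 was called in 24 of 24 alternatives, with an adjusted p of 0.00124 to 0.0492. Without Ahr-KO F3 the log2 difference was 0.53 (adjusted p 0.0455 by limma).

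Cxcr2 is known best from neutrophils, and markers of these cells were therefore set beside it. Of 8 neutrophil markers 6 were tested, with 2 higher in Ahr-KO and 0 lower, beside 8.84% of all genes called by limma. The 2 were Retnlg (log2 difference 1.21, adjusted p 0.00453 by limma, 6 of 6 samples above every WT sample) and Csf3r (0.59, adjusted p 0.0145). The other tested markers had medians per kilobase in WT and Ahr-KO of 17 and 5.59 (Ngp), 202 and 207 (S100a8), 337 and 401 (S100a9) and 4.29 and 6.5 (Ltf). All but Retnlg were named after their values were seen. Retnlg was by far the most abundant. Over all samples it averaged 84317 per kilobase, above the top eosinophil marker Alox15 (7873), while Camp averaged 23.3 and Ly6g 1.57. Which cells carried Retnlg was not tested, so its rise cannot be read as one of neutrophils. With Retnlg left out the summed normalised counts were 659 to 913 in WT, 806 to 3028 in Ahr-KO and 1997 to 4863 in Ahrr-KO. The highest Ahr-KO sum was that of F3 alone, the other 5 samples being at 806 to 1120. Ly6g and Camp, which mark neutrophils and their precursors, had a median count below 3. Camp stood at 107 counts in Ahr-KO F3 and 188 in Ahrr-KO F2, and at 0 to 6 in the other samples. Ahr-KO M1, which had the highest Cxcr2 value, had 1 count of Camp but the second highest log2 value of Csf3r in its group (9.66). Ahr-KO F2 was lowest of its group for both Cxcr2 and Csf3r (9.18). Retnlg had the opposite order, with its lowest log2 value of the group in Ahr-KO M1 (15.74) and its highest in Ahr-KO F2 (16.79). The part of neutrophil transcripts in the Cxcr2 difference was not tested.

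Cxcr4 rose as well, with the highest values in females. Its log2 values were 11.00, 11.54 and 12.37 in WT and 11.72, 12.27 and 13.07 in Ahr-KO. All 6 Ahr-KO samples lay above the WT median, but only the 3 females lay above every WT sample, at 12.45 to 13.07 against 11.72 to 12.08 in the males. The log2 difference was 0.79 (SE 0.23, 95% interval 0.31 to 1.27, adjusted p 0.0402 by limma), and the mean normalised count was 1.76 times that in WT. Cxcr4 was called in 12 of 24 alternatives, with an adjusted p of 0.0107 to 0.125. The call was lost without WT F1 (adjusted p 0.0571 by limma), WT F3 (0.0975), WT M2 (0.0526), WT M3 (0.0881), Ahr-KO F1 (0.106), Ahr-KO F2 (0.102), Ahr-KO F3 (0.058) or Ahr-KO M3 (0.0795). It was lost too with no minimum abundance (0.0887), with no sex covariate (0.0857), with all 18 samples in the fit (0.125), and without WT F3 and Ahr-KO F3 together (0.117), an alternative chosen after seeing the data. Where the call was lost, the log2 difference was 0.60 (without WT F1) to 0.83 (without WT M2 or Ahr-KO F3).

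The other members were measured but not called. Ccr2 had log2 values of 6.33, 6.89 and 7.57 in WT and 6.87, 7.51 and 8.72 in Ahr-KO, with Ahr-KO M1 and M2 far above the rest. Its mean normalised count in Ahr-KO was 2.40 times that in WT, and its log2 difference was 0.75 (SE 0.30, 95% interval 0.12 to 1.39, adjusted p 0.133 by limma, 5 of 6 samples above the WT median). Ccr2 was called in 1 of 23 alternatives, the one with the labelled replicate as a block (adjusted p 0.0329), and the adjusted p ranged from 0.0329 to 0.27. Cx3cr1 had log2 values of 5.80, 5.93 and 6.20 in WT and 5.42, 6.14 and 6.81 in Ahr-KO, a log2 difference of 0.12 (SE 0.16, adjusted p 0.694 by limma, 4 of 6 samples above the WT median). Leaving out 1 sample gave 0.03 (without WT M1) to 0.22 (without Ahr-KO F1) for Cx3cr1 in 7 fits, and in the other 5 it fell below the minimum abundance. Its Ahr-KO males, at 6.27 to 6.81, were all above its Ahr-KO females, at 5.42 to 6.01.

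Both S1P receptors were near the limit of detection. S1pr4 had 5 to 24 counts in WT and 4 to 32 in Ahr-KO, with a log2 difference of -0.06 (SE 0.16, adjusted p 0.87 by limma, 5 of 6 samples below the WT median). Without WT M2 or Ahr-KO M1 that difference was 0.03. S1pr1 had 3 to 19 counts in WT and 1 to 21 in Ahr-KO, log2 values of 5.50 to 6.20 and 5.25 to 6.06, and was not tested. In WT the 3 females had 11 to 19 counts of S1pr1 and the 3 males 3 to 9.

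**Figure D2:**
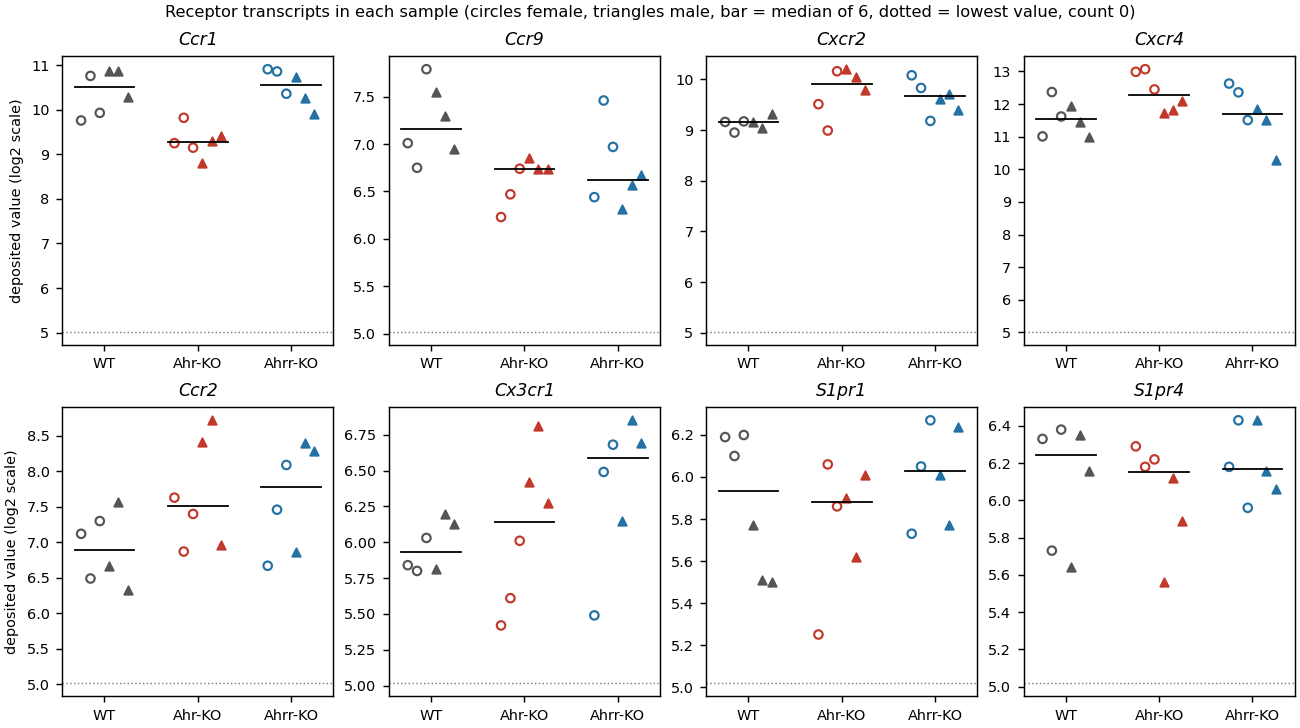
Deposited log2 value of each of the 8 members in every sample by group, with circles for females, triangles for males, a bar at the median of 6 and a dotted line at the lowest value of the table. Ccr1 lies lower in Ahr-KO (8.80 to 9.82) than in WT (9.76 to 10.87) or Ahrr-KO (9.91 to 10.91), while S1pr1, S1pr4 and Cx3cr1 stay close to the dotted line.

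Markers of macrophages and dendritic cells, which carry Ccr2 and Cx3cr1, were set beside these receptors. Of 10 monocyte and macrophage markers 7 were tested in WT and Ahr-KO and 1 was called higher. The most abundant was Adgre1, which eosinophils express too. With Adgre1 left out, the normalised counts summed to 776 to 988 in WT, 995 to 1413 in Ahr-KO and 742 to 1731 in Ahrr-KO. Of 6 dendritic cell markers 5 were tested and 1 was called higher, Itgax, the most abundant of them. Over all samples Itgax averaged 1866 per kilobase, H2-Ab1, H2-Aa and Cd74 473 to 834, Zbtb46 4.1 and Flt3 1.59. All but Itgax were named after their values were seen, and which cells carried Itgax was not tested. Without Itgax the sums were 1029 to 3263 in WT, 371 to 725 in Ahr-KO females, 1861 to 4715 in Ahr-KO males and 817 to 7445 in Ahrr-KO. No marker of either list was at 0 in all samples. Across all 18 samples Ccr2 and Cx3cr1 had the highest correlation among the 7 tested members (Pearson r 0.72, n 18), and Cx3cr1 and Cxcr4 the lowest (-0.58), as a description over samples that share genotype, sex and depth. The genes with the highest correlation with Cx3cr1 were Aif1 (0.91), Mrc1 (0.90) and Apoe (0.90), known from macrophages and named after their values were seen. The part of macrophage and dendritic cell transcripts in the Ccr2 and Cx3cr1 values was not tested.

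Ligands of the receptors were counted as well, and their calls can be read against 8.84% of all genes called by limma. Of 17 ligand genes 10 were tested in WT and Ahr-KO, with 3 higher and 2 lower by limma and a median log2 difference of -0.18, against -0.00 over all tested genes. Cxcl3, a Cxcr2 ligand, had log2 values of 12.25, 12.74 and 13.33 in WT, 9.41, 10.12 and 10.66 in Ahr-KO, and 12.18, 13.05 and 14.03 in Ahrr-KO. Every Ahr-KO sample of Cxcl3 was below every sample of the other groups (log2 difference from WT -2.70, SE 0.24, adjusted p 1.91e-06 by limma, 6 of 6 samples). Ppbp, the platelet chemokine that Cxcr2 also binds, had 73 to 376 counts in WT and 1 to 6 in Ahr-KO, and its log2 difference of -2.83 (SE 0.24, adjusted p 1.1e-06 by limma, 6 of 6 samples) rests on a group near the lowest value.

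Among the ligands of Ccr1, 2 rose while their receptor fell. Ccl6 rose by a log2 difference of 0.95 (SE 0.20, adjusted p 0.00677 by limma, 23 of 24 alternatives), from WT values of 11.83, 12.39 and 12.92 to 12.78, 13.49 and 13.75. Ccl3 rose by 0.83 (SE 0.21, adjusted p 0.0198 by limma, 17 of 24 alternatives), from 10.37, 10.68 and 11.31 to 10.46, 11.75 and 12.46. For both genes the groups overlap, and all Ahr-KO females lay above the Ahr-KO males. The females stood at 12.01 to 12.46 for Ccl3 and 13.60 to 13.75 for Ccl6, the males at 10.46 to 11.49 and 12.78 to 13.38. Ccl9, a further Ccr1 ligand named after its values were seen, was not called and had a log2 difference of -0.43 (SE 0.21, adjusted p 0.233 by limma), from 8.04, 8.84 and 9.11 in WT to 7.78, 8.25 and 9.12 in Ahr-KO.

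The called ligands of Cxcr2 differed in direction. Cxcl1, a further Cxcr2 ligand named after its value was seen, rose by 0.74 (SE 0.17, adjusted p 0.011 by limma, 23 of 23 alternatives). Cxcl2, a Cxcr2 ligand named in the same way, had medians of 17220 per kilobase in WT and 15873 in Ahr-KO, and a log2 difference of -0.20 (SE 0.21, adjusted p 0.602 by limma). Cxcl12, the ligand of Cxcr4, had 2 to 9 counts in WT and 4 to 8 in Ahr-KO and was not tested. Ccl25, the ligand of Ccr9, was named after its values were seen: it had log2 values of 9.03, 9.70 and 10.72 in WT and 8.66, 9.52 and 9.81 in Ahr-KO, and a log2 difference of -0.36 (SE 0.25, adjusted p 0.421 by limma). Over all samples Ccl25 was highest in Ahrr-KO M1 (12.01), M3 (11.20) and F3 (11.11) and in WT F1 (10.72). These samples also had the highest sums of epithelial markers, whose part in the Ccl25 values was not tested.

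Genes that act downstream of the receptors were counted next, and their calls can be read against 8.84% of all genes called by limma. Of 11 genes for coupling and desensitisation all 11 were tested, with 1 higher, 1 lower and a median log2 difference of 0.18. Arrb1, an arrestin that silences and internalises these receptors, fell by a log2 difference of -0.80 (SE 0.12, adjusted p 0.000365 by limma, 6 of 6 samples below every WT sample, 24 of 24 alternatives). Grk3, a kinase that marks active receptors for arrestin, rose by 0.52 (SE 0.12, adjusted p 0.00969 by limma, 22 of 23 alternatives). Of 12 genes of chemotaxis signalling 3 rose and 0 fell, with a median of 0.19. They were Pik3cg (log2 difference 0.45, adjusted p 0.0103 by limma), the Rac activator Prex1 (0.42, adjusted p 0.0313, 13 of 24 alternatives) and Plcb2 (0.39, adjusted p 0.0375, 11 of 24 alternatives).

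On the S1P side the receptors gave no call, but a partner did. These counts too can be read against 8.84% of all genes called by limma. Cd69, which binds S1PR1 and holds cells in tissue by taking it off the surface, had log2 values of 9.13, 9.46 and 10.54 in WT and 7.60, 8.09 and 8.81 in Ahr-KO. Every Ahr-KO sample was below every WT sample. Cd69 fell by a log2 difference of -1.54 (SE 0.22, adjusted p 0.00027 by limma, 24 of 24 alternatives, 6 of 6 samples), the only call among 3 tested S1pr1 regulators (median -0.12). This is RNA and does not show how much CD69 protein was at the surface. By flow cytometry the paper found a higher proportion of eosinophils with both CD63 and CD69 in mice whose Ahr deletion was specific to eosinophils. Of 10 genes of S1P metabolism and transport 8 were tested, with 0 higher and 1 lower and a median of -0.17. That gene, the S1P phosphatase Sgpp1, fell by -0.37 (SE 0.11, adjusted p 0.0443 by limma) and was called in 7 of 24 alternatives, with an adjusted p of 0.0174 to 0.122. Of the 5 S1P receptor genes 2 were tested and 0 called, with a median of 0.06.

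**Figure D3:**
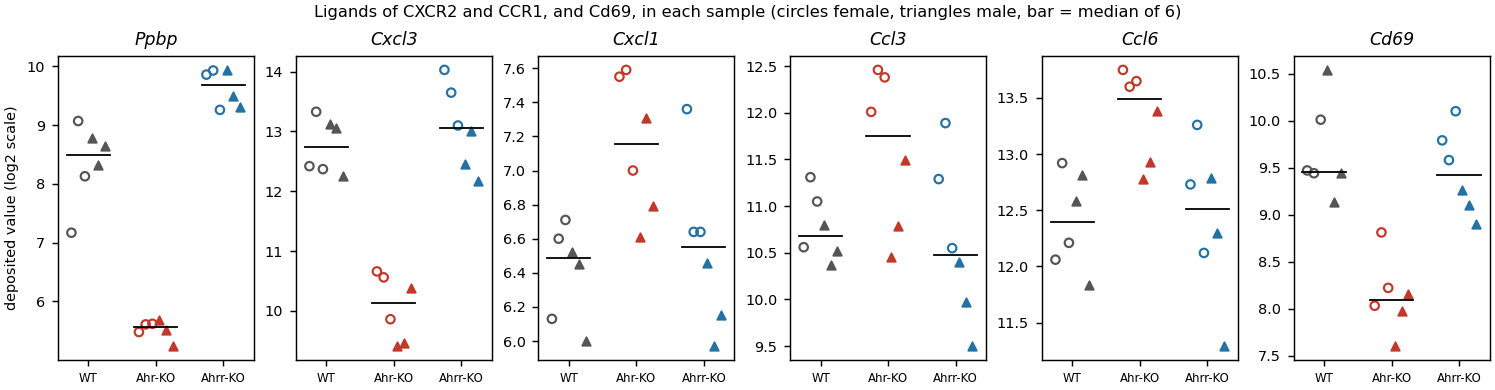
Deposited log2 values of the ligand genes Ppbp, Cxcl3, Cxcl1, Ccl3 and Ccl6 and of Cd69 in every sample by group, with circles for females, triangles for males and a bar at the median of 6. Ppbp, Cxcl3 and Cd69 separate Ahr-KO from both other groups without overlap, and Ccl3, Ccl6 and Cxcl1 are higher there with overlap.

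Among all chemokine receptors the calls were all on members of the set. Of 24 receptor genes 23 were in the table, all but Ccr8, and 12 were tested, with 2 higher, 2 lower and a median log2 difference of 0.26. Over all genes limma called 8.84%. The 6 tested receptors outside the set gave 0 calls, also with a median of 0.26. This difference in calls was itself not tested, and the members had been chosen with results of these data known. Ccr3, the main chemotactic receptor of eosinophils, had a log2 difference of 0.04 (SE 0.15, 95% interval -0.28 to 0.36, adjusted p 0.902 by limma).

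The positions of the genes were compared too. On GRCm38.p6, 14 of the 23 receptor genes lie on chromosome 9, and 8 of them form a cluster of 360 kb that holds the members Ccr9, Ccr1 and Ccr2. Of the 7 cluster genes tested, 2 were lower in Ahr-KO and 0 higher, beside 3.68% and 5.16% of all genes. These 2, Ccr9 and Ccr1, are separated by Cxcr6 and Xcr1, and Cxcr6, named for this position, had a log2 difference of -0.00 (adjusted p 0.993 by limma). The risers Cxcr2 and Cxcr4 lie far apart on chromosome 1.

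The genes most like each called member across the 18 samples are given as a description, as the highest of many correlations and with no chance level. For Ccr1 the 3 highest Pearson correlations among 11468 genes were with the chemokine gene Cxcl3 (0.92), Prkag1 (0.91) and Fgl2 (0.91). For Cxcr4 they were Dennd3 (0.96), Nr4a1 (0.95) and Nudt4 (0.95). Cxcr2 was most like Zfp560 (0.80), St3gal6 (0.72) and Nrap (0.71), and Ccr9 most like Map3k12 (0.83), Intu (0.78) and Srsf7 (0.78). These values describe samples that share genotype, sex and depth.

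Between WT and Ahrr-KO no member was called. The test by limma called 0 of 7 members, with 9 of 11546 genes called over the whole table (0.0779%). At an unadjusted p below 0.05 there were 853 genes, and voom called 4 genes and 0 members with 844 genes at that level. No member separated WT from Ahrr-KO without overlap, which 53 genes did (0.459%). The 9 genes became 25 without Ahrr-KO F1, 5 without Ahrr-KO F3, and 4 without WT F1, WT F2, WT M2, WT M3, Ahrr-KO F2, Ahrr-KO M2 or Ahrr-KO M3. This comparison uses the same WT samples as the one with Ahr-KO, so that the values of both are given only side by side.

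Cxcr2 had the lowest adjusted p of the members here. Its log2 values in Ahrr-KO were 9.18, 9.66 and 10.08, with 5 of 6 samples above every WT sample and F3 alone within the WT range. The log2 difference was 0.50 (SE 0.15, adjusted p 0.502 by limma), beside 0.65 in Ahr-KO. Of 6 tested neutrophil markers 3 were called higher in Ahrr-KO and 0 lower, beside 0.0779% of all genes called. They were S100a9 (2.10, adjusted p 0.00022 by limma), S100a8 (2.06, adjusted p 0.000667) and Csf3r (1.18, adjusted p 0.0426, 9 of 24 alternatives). The others were not called. Their medians per kilobase in WT and Ahrr-KO were 59672 and 56039 for Retnlg, 17 and 7.91 for Ngp, and 4.29 and 5.99 for Ltf. The part of these transcripts in the Cxcr2 values was not tested. S100a8, S100a9, Ngp and Ltf were named after their values were seen.

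The remaining members in Ahrr-KO were spread on both sides of WT. Ccr2 had log2 values of 6.67, 7.78 and 8.40 in Ahrr-KO and a difference of 0.72 (SE 0.32, adjusted p 0.659 by limma, 4 of 6 samples above the WT median). Cx3cr1 had 5.49, 6.59 and 6.85 and a difference of 0.42 (SE 0.20, adjusted p 0.669 by limma, 5 of 6 samples above the WT median). Ccr9 had 6.31, 6.62 and 7.46 and a difference of -0.49 (SE 0.22, adjusted p 0.659 by limma, 5 of 6 samples below the WT median). For these genes the Ahrr-KO range was wider than that of WT or reached past it.

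Ccr1 and Cxcr4 sat close to WT in Ahrr-KO. For Ccr1 the log2 difference was 0.10 (SE 0.23, 95% interval -0.40 to 0.60, adjusted p 0.903 by limma, 3 of 6 samples above the WT median), and without WT F1 it was -0.04 and without WT F3 -0.00. Cxcr4 had log2 values of 10.29, 11.69 and 12.63 and a difference of 0.13 (SE 0.32, adjusted p 0.906 by limma, 3 of 6 samples above the WT median), which became -0.06 without WT F1 and -0.01 without Ahrr-KO F1. Its lowest value was that of M3, the sample with the lowest sum of eosinophil markers (14322 normalised counts) in the data. S1pr4 had 23 to 40 counts and a difference of 0.10 (SE 0.17, adjusted p 0.854 by limma, 2 of 6 samples above the WT median), and S1pr1 had 9 to 42 counts and was not tested. These intervals and adjusted p-values do not show that the members are equal in WT and Ahrr-KO.

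No pathway list held a called gene in Ahrr-KO. Limma called 0 of 12 chemokine receptors (median log2 difference 0.02), 0 of 2 S1P receptors (0.10), 0 of 10 genes of S1P metabolism (0.25), 0 of 10 ligands (0.22), 0 of 11 coupling genes (-0.01), 0 of 12 chemotaxis genes (-0.22) and 0 of 3 S1pr1 regulators (0.10), against a median of 0.01 over all tested genes. Ppbp was the ligand that stood out, with 813 to 1098 counts in Ahrr-KO, and a log2 difference of 1.28 (SE 0.26, adjusted p 0.158 by limma, 6 of 6 samples above every WT sample). It was called in 1 of 24 alternatives, with an adjusted p of 0.0186 to 0.392.

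The direct test between the knockouts gave a call for Ccr1 alone. It was limma again, here on the 6 Ahr-KO and 6 Ahrr-KO samples, and it called 1 of 7 members, higher in Ahrr-KO, with 1708 of 11474 genes called (14.9%) and 923 of them higher (8.04%). The count of 1708 genes moved to 907 without Ahr-KO F1, 970 without Ahr-KO F2, 839 without Ahr-KO M1, 933 without Ahr-KO M2, 818 without Ahr-KO M3, 2574 without Ahrr-KO F1, 1001 without Ahrr-KO F3 and 923 without Ahrr-KO M3. The split between directions depends on the scale: with each sample centred on its median 827 genes were higher and 981 lower. The members called became 2 without Ahrr-KO F1 or Ahrr-KO M1.

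Ccr1 separated the knockouts completely. All 6 Ahrr-KO values, from 9.91 up, lay above all 6 Ahr-KO values, up to 9.82, and 1 member without overlap compares with 529 genes overall (4.61%). The log2 difference was 1.22 (SE 0.17, 95% interval 0.85 to 1.59, adjusted p 0.000477 by limma), 2.49 times in mean normalised counts. It was called in 25 of 25 alternatives, with an adjusted p of 0.000113 to 0.00319.

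**Figure D4:**
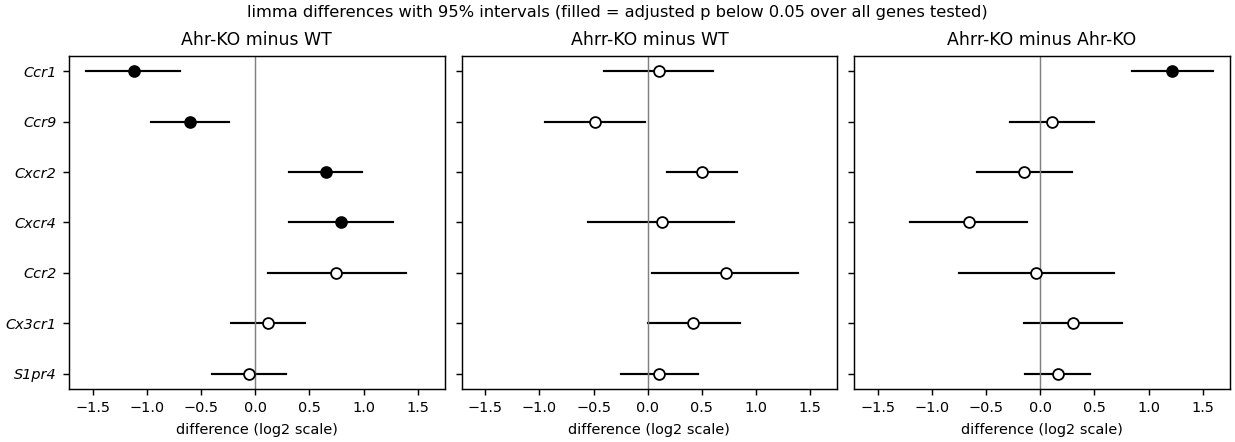
Log2 differences of the 7 tested members in the 3 genotype comparisons by limma, with 95% intervals and filled symbols where the adjusted p is below 0.05. Ccr1 is the only member filled in more than 1 comparison, at -1.12 for Ahr-KO minus WT and 1.22 for Ahrr-KO minus Ahr-KO.

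Cxcr4 was lower in Ahrr-KO than in Ahr-KO without reaching the threshold. Its log2 difference was -0.66 (SE 0.25, adjusted p 0.0846 by limma, 4 of 6 samples below the Ahr-KO median), called in 3 of 25 alternatives with an adjusted p of 0.0456 to 0.236. These were quantile normalisation (0.0456) and the fits without Ahrr-KO F1 (adjusted p 0.0478 by limma) or Ahrr-KO M1 (0.0477). The log2 differences of the others were 0.30 for Cx3cr1 (adjusted p 0.341 by limma, 5 of 6 samples above the Ahr-KO median), 0.16 for S1pr4, -0.15 for Cxcr2, 0.11 for Ccr9 and -0.04 for Ccr2. Leaving out 1 sample gave -0.31 (without Ahr-KO F2) to -0.05 (without Ahr-KO F3) for Cxcr2 and 0.07 (without Ahr-KO M1) to 0.23 (without Ahrr-KO F3) for S1pr4. Ccr9 turned to -0.04 without Ahrr-KO F2, and Ccr2 to 0.02 without Ahr-KO F1, 0.06 without Ahr-KO M1, 0.13 without Ahr-KO M2, 0.11 without Ahrr-KO F1 and 0.20 without Ahrr-KO M1. So the rise of Cxcr2 and Cxcr4 and the fall of Ccr9 against WT were not shown to differ between the knockouts.

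Ligands and other partners of the receptors were counted between the knockouts too, beside 14.9% of all genes called by limma. Among the ligands 3 were higher and 3 lower in Ahrr-KO by limma, with a median log2 difference of 0.41 over 10 tested. Ppbp (4.11, adjusted p 1.56e-10 by limma) and Cxcl3 (3.01, adjusted p 1.35e-06) had the largest differences, each with 6 of 6 samples above every Ahr-KO sample, while Ccl6 was lower, with a log2 difference of -0.93, as was Ccl3 (adjusted p 0.0133). Limma further called Cd69 (1.32, 1 of 3 regulators, median 0.25), Arrb1 (0.58, 1 of 11 coupling genes, median -0.16), and Pik3cg, Plcb2 and Prex1 (-0.71, -0.68 and -0.52, 3 of 12 chemotaxis genes, median -0.45). In S1P metabolism Sgpp2 (0.95) and Plpp2 (0.84), named after their values were seen, were 2 of 9 called (median 0.25); within Ahrr-KO both were highest in F3, M1 and M3, the samples with the highest epithelial marker sums, whose part was not tested. Of 12 chemokine receptors 1 was called (median -0.19), and of 2 S1P receptors 0 (median 0.04).

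Markers of other cells were counted between the knockouts too, beside 14.9% of all genes called by limma. Of 7 epithelial markers all 7 were tested, with 4 higher in Ahrr-KO than in Ahr-KO by limma and 0 called against WT in either knockout. Krt19 was the most abundant, none was at 0 in all samples, and the normalised counts of the list summed to 3662 to 15077 in WT, 2953 to 6783 in Ahr-KO and 4402 to 21590 in Ahrr-KO. The sums were highest in Ahrr-KO M1, M3 and F3 and in WT F1. Without these 3 Ahrr-KO samples, an alternative chosen after seeing the data, Ccr1 was still called between the knockouts (log2 difference 1.34, adjusted p 0.000213 by limma) and 626 genes were called, and Cxcr2 had a difference of 0.13.

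**Figure D5:**
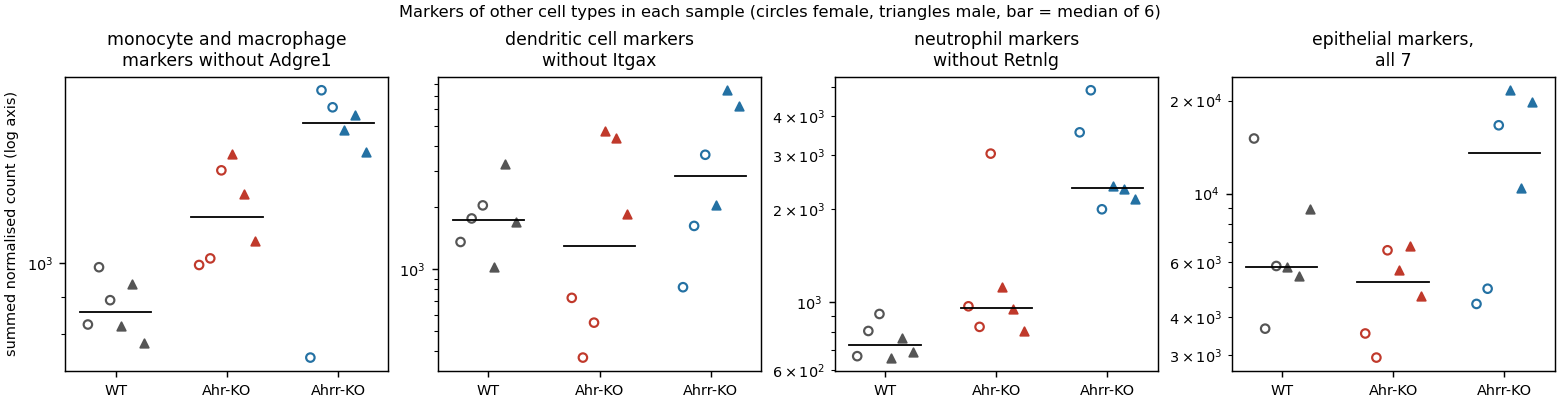
Summed normalised counts per sample (logarithmic axis) of macrophage markers without Adgre1, dendritic cell markers without Itgax, neutrophil markers without Retnlg and all epithelial markers, with circles for females and triangles for males. Neutrophil sums have their highest median in Ahrr-KO (range 1997 to 4863), which Ahr-KO F3 reaches into with 3028, and dendritic cell sums part the sexes in Ahr-KO.

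Other marker lists held calls between the knockouts as well, to be read against the same 14.9% of all genes. Of 6 tested neutrophil markers limma called 3 higher in Ahrr-KO than in Ahr-KO, S100a8 (log2 difference 1.73), S100a9 (1.69) and Csf3r (0.59, 15 of 25 alternatives), and 1 lower, Retnlg (-1.29). Higher in Ahrr-KO were also 1 of 3 B and plasma cell markers, Jchain (3.20, adjusted p 0.00708 by limma), 1 of 9 macrophage markers, C1qb (1.06, adjusted p 0.0466, 6 of 24 alternatives), and 1 of 3 endothelial markers, Cdh5 (0.70, adjusted p 0.0318, 14 of 23 alternatives). Itgax was lower, as 1 of 5 dendritic cell markers (-0.61, adjusted p 0.0291 by limma, 15 of 25 alternatives), and the 1 tested T and innate lymphocyte marker was not called. C1qb and Cdh5 were named after their values were seen. The part of these cells in the difference of Ccr1 between the knockouts was not tested.

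The eosinophil, mast cell and endothelial lists were described in the same way. Over all genes limma called 8.84% in Ahr-KO against WT, 0.0779% in Ahrr-KO against WT and 14.9% between the knockouts. Of the 5 tested eosinophil markers 2 rose in Ahr-KO (Alox15, log2 difference 0.58, adjusted p 0.023 by limma, 16 of 24 alternatives, and Prg2, 2.30, adjusted p 3.47e-07), 0 were called in Ahrr-KO against WT, and 4 were lower in Ahrr-KO than in Ahr-KO. Their normalised counts summed to 24866 to 38211 in WT, 38503 to 49555 in Ahr-KO and 14322 to 38775 in Ahrr-KO. Of 6 mast cell markers 0 could be tested, with sums of 2.37 to 39.2, 5.69 to 26.8 and 9.75 to 147, and all but Cpa3 at a median count below 3. Of 5 endothelial markers 1 was tested in WT and Ahr-KO, the adhesion gene Pecam1, which fell (-0.63, adjusted p 0.00116 by limma). Endothelial sums were 2564 to 3768 in WT, 1855 to 2314 in Ahr-KO and 1738 to 3794 in Ahrr-KO, nearly all of it Pecam1, which leukocytes express too. Without Pecam1 they were 39.2 to 176, 31.2 to 44.2 and 33.4 to 263. Their part in the values of the receptors was not tested.

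Sex was the last contrast, and no member passed it. Males were compared with females by limma over all 18 samples with genotype in the model, and 0 of 7 members were called, beside 351 of 11468 genes (3.06%), 2145 at an unadjusted p below 0.05, and 340 by voom. The 351 genes became 733 without WT F1, 595 without WT M1, 577 without Ahrr-KO F3, 142 without Ahr-KO M1, 159 without Ahr-KO F2, 160 without WT M3, 173 without Ahrr-KO F2, 180 without Ahr-KO M2, 181 without WT F2, 188 without Ahrr-KO M3, 205 without Ahr-KO F1, 206 without Ahrr-KO F1 and 211 without Ahr-KO M3. By voom 0 members were called as well.

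Cxcr4 had the lowest adjusted p of the members for sex. Males had the lower values, most clearly in Ahr-KO, where all 3 were below all 3 females. The log2 difference was -0.71 (SE 0.23, adjusted p 0.0963 by limma), called in 3 of 29 alternatives with an adjusted p of 0.00505 to 0.213. The call was made without WT F1 (-0.84, adjusted p 0.0245 by limma), without WT M1 (-0.81, 0.0413) and, in an alternative chosen after seeing the data, without the 4 samples richest in epithelial markers (-0.82, 0.00505). For Cx3cr1 the difference was 0.44 (SE 0.16, adjusted p 0.142 by limma), called only in that last alternative (0.58, adjusted p 0.0432). Among the ligands, Ccl3 (log2 difference -1.02, SE 0.20, adjusted p 0.00978 by limma, 29 of 29 alternatives) and Ccl4 (-0.97, SE 0.19, adjusted p 0.0104, 29 of 29) were lower in males, both named after their values were seen.

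The other members showed smaller differences between the sexes. They were 0.35 for Ccr2 (adjusted p 0.511 by limma), -0.15 for S1pr4 (0.563), 0.14 for Cxcr2 (0.649), -0.04 for Ccr1 (0.924) and -0.02 for Ccr9 (0.955), with 18 samples in each fit. Ccr1 reached 0.00 without WT F2 or Ahrr-KO F2, 0.03 without Ahr-KO F2, 0.02 without Ahr-KO M1, 0.01 without Ahrr-KO F1 and 0.04 without Ahrr-KO M3. Ccr9 reached 0.06 without WT F3, 0.02 without WT M3, 0.08 without Ahrr-KO F2, 0.01 without Ahrr-KO F3 and 0.04 without Ahrr-KO M1. Leaving out 1 sample was thus enough to turn the sign of both.

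Whether the effect of a genotype differs between the sexes was tested by an interaction term. For Ahr-KO limma called 0 members and 0 of 11346 genes (0%), with 533 at an unadjusted p below 0.05, and voom 0 and 549. For Ahrr-KO limma called 0 members and 0 of 11546 genes (0%), with 544 at an unadjusted p below 0.05, and voom 0 and 457. The largest interaction terms among members were -0.92 for Ccr1 in Ahrr-KO (adjusted p 0.727 by limma, 3 of 3 WT males above the female median and 3 of 3 Ahrr-KO males below it), 0.85 for Ccr2, -0.76 for Ccr1 and -0.76 for Cxcr4 in Ahr-KO. The higher Cxcr4 in Ahr-KO females therefore stands as a description.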

How the data were processed

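The authors aligned single-end Illumina reads to GRCm38 with STAR 2.5.2, counted them with RSEM 1.3.0 and applied the variance-stabilising transformation of DESeq2 in R 4.0.3, and the deposited table holds these values on a log2 scale for 22708 genes. The methods do not state that the library kit (NuGEN Ovation) keeps the strand. A count of 0 corresponds to the lowest value in the table, 5.02. The transformation was inverted, which returned whole numbers within 0.0001 for 100% of entries, and these counts served for depth, normalised counts and voom.

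Genotypes were compared with limma 3.58.1 in R 4.3.3, as a linear model per gene on the deposited log2 values with a mean-variance trend, sex as covariate and Benjamini-Hochberg adjustment. Genes entered the test if their average over the samples of that fit exceeded the lowest value by 1 or more, and called were those with an adjusted p below 0.05. Differences are Ahr-KO minus WT, Ahrr-KO minus WT, Ahrr-KO minus Ahr-KO and males minus females, in whichever order the groups are named. Interaction terms are the difference of males minus females in the knockout minus that in WT. Sexes were compared over all 18 samples with genotype in the model, and interactions of sex and genotype within each pair of groups. Normalised counts per kilobase used the longest protein-coding transcript. Correlations are Pearson's r over the 18 samples. Python 3.11.15 with numpy 2.4.6, pandas 2.3.3 and matplotlib 3.10.9 did the rest.

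Named are all members, Ahr and Ahrr, up to 4 called genes with the largest difference per pathway list, the most abundant and the absent genes of each marker list, and the 3 genes most correlated with each called member; others are named as chosen after their values were seen. The lists were chemokine receptors, S1P receptors, S1P metabolism and transport, ligands, coupling and desensitisation, chemotaxis signalling, S1pr1 regulators, and markers of eosinophils, neutrophils, monocytes and macrophages, dendritic cells, T and innate lymphocytes, B and plasma cells, mast cells, epithelium and endothelium. The members and lists were chosen with earlier results of these data known.

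Alternatives planned for the counts and differences left out every sample in turn, dropped the minimum or raised it to 3, centred samples on the median, normalised quantiles, used log2 of normalised count plus 1, removed the trend or made it robust, took the labelled replicate as block (not between the sexes), or, for genotypes only, omitted sex or fitted all 18 samples jointly. Chosen after seeing the data were limma voom on the recovered counts and leaving out WT F3 and Ahr-KO F3 (most genes detected), Ahr-KO F3 and Ahrr-KO F2 (most Camp and Ngp), or WT F1, Ahrr-KO F3, M1 and M3 (highest epithelial sum). No sample was left out otherwise.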

Additional observations from a re-analysis of the deposited data

Results flagged for a closer look

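Within each group of 6 samples the highest and lowest value of every member, of depth measures and of marker sums was compared with its nearest neighbour by Dixon's ratio. In all, 57 groups were tested and 6 values were set apart, while chance flags about 1 in 20 groups; none of the 24 groups of member values was among them. The number of genes with a count was 20244 in WT F3 (next 16526) and 19694 in Ahr-KO F3 (next 16704). The summed normalised count of monocyte and macrophage markers was 9302 in Ahr-KO F2 (next 8664). That of T and innate lymphocyte markers was 155 in WT F3 (next 64) and, at the low end, 7 in Ahrr-KO F1 (next 78). That of mast cell markers was 39 in WT F3 (next 16). WT F3 also had the lowest depth, 3842977 counts, and the highest Ccr9 value of any sample, log2 7.79.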

How the results depend on the processing

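Of 693 results for a member under an alternative, 631 kept side and direction, 31 turned direction, 23 lost and 8 gained a call. Replicate labels are no proven pairs: of 18 pairs of samples that share a label between groups, the own label was the best match in 6. Ages, litters and housing were not available for the fit. A stricter minimum left 3 members tested.

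Ahr-KO against WT: members called were 2 with no minimum and 2 with all 18 samples, against 4. Genes called were 553 with all 18 samples and 586 without WT F3 and Ahr-KO F3. With the replicate as block 5 members and 918 genes were called. Leaving out single samples gave 2 to 4 members, 623 to 1124 genes, and -0.16 to 0.03 for S1pr4.

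Ahrr-KO against WT: genes called were 4 with no minimum, 5 with the stricter minimum, 4 centred, 5 by quantiles, 4 on log2 of normalised count plus 1, 4 with the replicate block, 14 with all 18 samples and 4 by voom, and members called with the block were 0. Leaving out single samples gave 0 members, 4 to 25 genes, -0.04 to 0.24 for Ccr1 and -0.06 to 0.38 for Cxcr4.

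Ahrr-KO against Ahr-KO: members called were 2 by quantiles. Genes called were 828 with the stricter minimum, 994 with no sex covariate and 626 without Ahrr-KO F3, M1 and M3. With the block 1 member and 1946 genes were called. Differences turned to 0.00 for Ccr2 by voom, -0.01 for Ccr9 without Ahr-KO F3 and Ahrr-KO F2, and 0.13 for Cxcr2 without Ahrr-KO F3, M1 and M3. Leaving out single samples gave 1 to 2 members, 818 to 2574 genes, -0.26 to 0.20 for Ccr2 and -0.04 to 0.20 for Ccr9.

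Males against females: members called were 2 without WT F1, Ahrr-KO F3, M1 and M3. Genes called were 163 with no minimum, 118 without Ahr-KO F3 and Ahrr-KO F2, and 1049 without WT F1, Ahrr-KO F3, M1 and M3. Ccr1 turned to 0.03 by quantiles, and Ccr9 to 0.01 by voom, 0.08 without WT F3 and Ahr-KO F3, 0.10 without Ahr-KO F3 and Ahrr-KO F2, and 0.05 without WT F1, Ahrr-KO F3, M1 and M3. Leaving out single samples gave 0 to 1 members, 142 to 733 genes, -0.14 to 0.04 for Ccr1 and -0.09 to 0.08 for Ccr9. For the interactions the block and every left-out sample gave 0 members and 0 genes.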
